A study of Danio rerio with 16 samples.

Results

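The 10 genes described here encode the zebrafish hatching enzyme (he1.1), 7 cathepsins (ctslb, ctsll, ctss2.1, ctsh, ctsba, ctsd and ctsk), legumain (lgmn) and the acid phosphatase gene acp5a. They were listed by symbol, all 10 were found among the 36109 gene symbols of the count table, and all 10 were among the 24084 genes tested. The members were chosen by measured values of these same libraries, among which single knockouts stand apart, and the comparison that chose them is not stated. All values of knockout against sibling embryos at 34 and 48 hours post-fertilisation (hpf) are therefore treated as used in the choice. For these genes they are given as a description, and where calls between genotypes are counted, they stand beside the share of all genes called and are not evidence. The test is kept for the comparison of sibling stages, which uses no knockout library. Its sibling libraries also enter the comparisons of genotypes, and it may itself have played a part in the choice. Its p-values for the 10 genes are therefore no independent evidence.

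RNA was sequenced from whole zebrafish embryos in 4 groups of 4 libraries. The groups were untreated siblings at 34 hpf, hnf4a,hnf4b knockouts made with CRISPR/Cas9 at 34 hpf, and the same genotypes at 48 hpf. The hnf4 genes encode nuclear receptors of liver, gut and the yolk syncytial layer, and the title of the series concerns yolk lipid use and growth after segmentation. The labels do not say which alleles the siblings or knockouts carried, how many embryos were pooled, or what a repeat is. The p-values therefore cover only the variation among the libraries at hand, which may be technical.

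Hatching gland cells lie over the yolk of the zebrafish embryo and store a metalloprotease of the astacin family, which they secrete to soften the chorion so that the embryo can leave it. The gene ctslb, also called hatching gland gene 1, is a cathepsin L gene used as an early marker of those cells. Cathepsins are proteases of the lysosome: most are cysteine proteases, while cathepsin D is an aspartic protease, and legumain cuts after asparagine and helps to mature several of them. Lysosomal proteases also break down yolk proteins in fish eggs and embryos, and cathepsin K and tartrate-resistant acid phosphatase, the enzyme encoded by acp5a, are known from bone-resorbing osteoclasts.

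At 34 hpf the sibling libraries held 35586032 to 42407778 counts and the knockout libraries 34588058 to 41000857; at 48 hpf these were 36186542 to 38101069 and 40677285 to 43194625. Levels are in CPM, the count of a gene relative to the scaled total of its library. The targeted transcripts did not check the labels. Knockouts had 7.08 to 18.4 CPM of hnf4a against 10.8 to 15.0 CPM in siblings at 34 hpf, and 6.04 to 13.4 against 9.46 to 15.9 CPM at 48 hpf. For hnf4b the ranges were 0.925 to 3.2 against 1.66 to 8.50 CPM and 0.936 to 1.99 against 0.995 to 3.5 CPM. Knockout replicate 1 at 48 hpf stands apart in several of the results below. The labels name the stage as the batch, so stage and batch cannot be told apart.

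The hatching gland pair fell steeply with stage in sibling embryos. The hatching enzyme gene he1.1 stood at 1955, 2184, 2012 and 1899 CPM in sibling replicates 1 to 4 at 34 hpf and at 236, 132, 129 and 303 CPM at 48 hpf. The stages did not overlap, and sibling replicates 1 and 4 were the higher pair at 48 hpf. By the quasi-likelihood test of edgeR the log2 fold change was -3.33 ± 0.32 (SE; adjusted p = 3.66e-07). The gene ctslb stood at 261, 320.1, 219 and 213 CPM at 34 hpf and at 2.7, 2.71, 2.02 and 5.15 CPM at 48 hpf. Sibling replicate 4 was again the highest library at 48 hpf, and the log2 fold change of -6.33 ± 0.51 (adjusted p = 6.39e-08) was the largest of the 10 genes in size. In whole embryos, fewer hatching gland cells and less RNA per cell cannot be told apart.

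The direct neighbours of this pair also fell with stage. In the RefSeq annotation of another assembly (GRCz12tu), used only for gene order, all 10 genes were matched, and he1.1 is followed directly by he1.2, a further hatching enzyme gene, and preceded by aox5, an aldehyde oxidase gene. In siblings aox5 fell from 107 ± 8.5 to 81.9 ± 8.55 CPM (-0.39 ± 0.10, adjusted p = 0.00658, edgeR). In siblings he1.2 fell from 349.9 ± 32.1 CPM to 37.3 ± 21.5 CPM (SD, n = 4), a log2 fold change of -3.23 ± 0.44 (adjusted p = 1.77e-05, edgeR). The gene he1.3, a family member that is not a direct neighbour, fell from 2.07 ± 1.11 to 0.264 ± 0.249 CPM (-2.95 ± 0.68, adjusted p = 0.00248, edgeR). On either side of ctslb lie si:dkey-239j18.2 and si:dkey-239j18.3, symbols to which the files give no function. They fell from 122 ± 28.9 to 1.06 ± 0.462 CPM (-6.85 ± 0.42) and from 456 ± 42.8 to 55.1 ± 26.1 CPM (-3.05 ± 0.32), with adjusted p = 5.18e-09 and 1.11e-06 in edgeR. Of 17 direct neighbours of the 10 genes that are not themselves among the 10, 5 were lower and 3 higher at 48 hpf. Among all genes 15.7% were lower and 18.3% higher. Of the 5 neighbours, 3 were he1.2 and these flanking genes of ctslb. The treatment of reads with several alignments is not given in the sources used here, so counts of near-identical copies are uncertain.

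**Figure D1:**
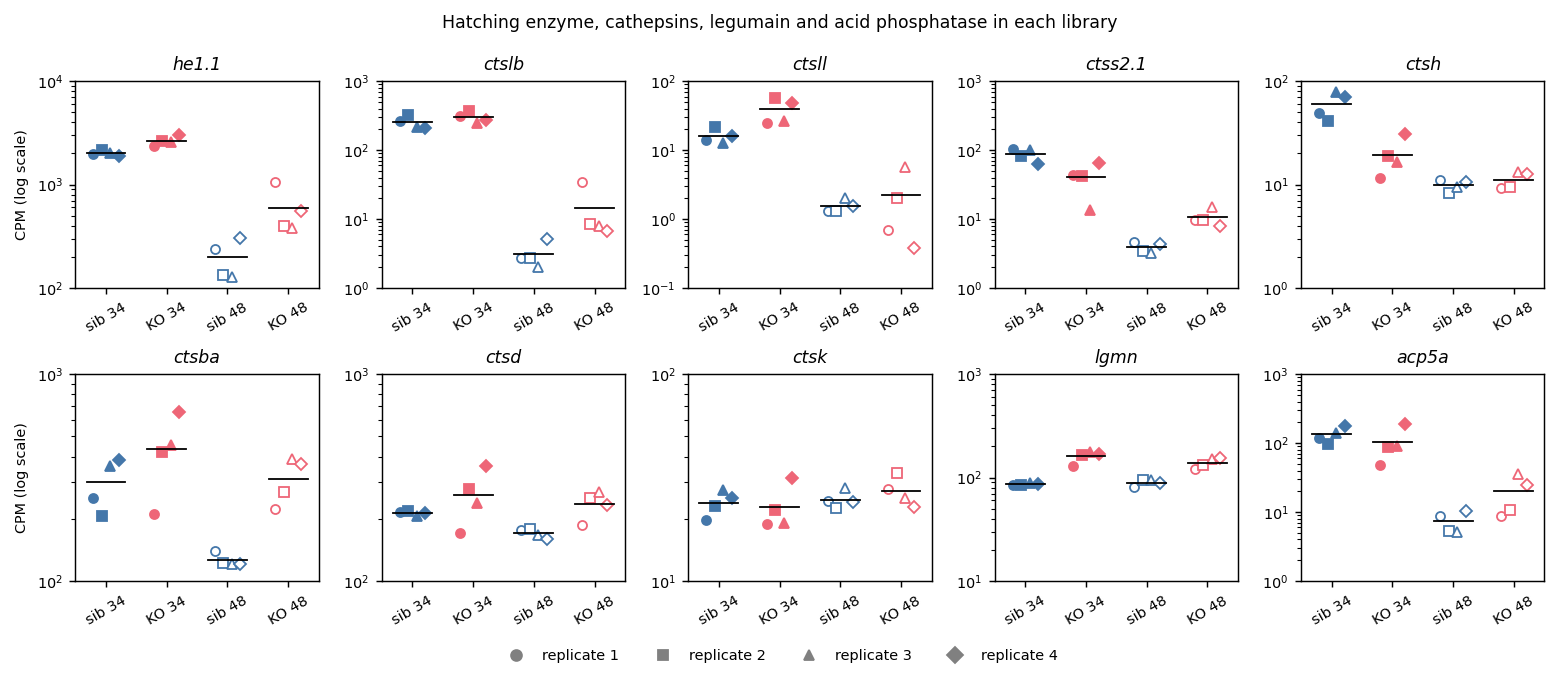
CPM of each gene on a logarithmic axis in every library, by group (sib, sibling; KO, knockout; 34 and 48 hpf). Marker shapes stand for replicates 1 to 4 and bars for group means (n = 4); he1.1 spans 129 to 303 CPM in siblings at 48 hpf and 376 to 1048 CPM in knockouts, where replicate 1 is the highest.

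The cysteine cathepsins apart from ctsk, and acp5a, also fell with stage in siblings. The cathepsin S gene ctss2.1, of an enzyme known in mammals for antigen presentation, stood at 103, 82.5, 98.9 and 62.7 CPM at 34 hpf and at 4.69, 3.43, 3.26 and 4.39 CPM at 48 hpf. All 4 libraries of 48 hpf lay far below those of 34 hpf (log2 fold change -4.46 ± 0.37, adjusted p = 8.98e-08, edgeR). The cathepsin H gene ctsh, of an aminopeptidase, stood at 49.5, 41.2, 78.6 and 71.2 CPM and then at 11.0, 8.32, 9.49 and 10.6 CPM. Its log2 fold change was -2.61 ± 0.26 (adjusted p = 6.58e-07, edgeR), and replicates 3 and 4 were the higher pair at 34 hpf.

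The cathepsin B gene ctsba was split in the same way at 34 hpf, with 251, 206, 360.5 and 383 CPM, and stood at 139, 122, 121 and 121 CPM at 48 hpf. It fell by 1.25 ± 0.27 on the log2 scale (adjusted p = 0.0015, edgeR) with no overlap of the stages. The gene acp5a stood at 121, 95.7, 142 and 179.9 CPM and then at 8.66, 5.36, 5.07 and 10.3 CPM. Its log2 fold change was -4.19 ± 0.48 (adjusted p = 3.12e-06, edgeR). The cathepsin L-like gene ctsll, at 12.6 to 21.8 CPM at 34 hpf and 1.3 to 2.04 CPM at 48 hpf, changed by -3.37 ± 0.56 (adjusted p = 0.000153, edgeR).

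The remaining 3 genes did not pass the test between sibling stages. The cathepsin D gene ctsd stood at 205 to 217 CPM at 34 hpf and at 159.8 to 179 CPM at 48 hpf, ranges that did not overlap (-0.32 ± 0.16, adjusted p = 0.143, edgeR). With only the sibling libraries in the fit it passed, at -0.29 (adjusted p = 0.00126). For lgmn the log2 fold change was 0.05 ± 0.10 (adjusted p = 0.747, edgeR), with 83.9 to 88.3 and 81.6 to 94.0 CPM. The cathepsin K gene ctsk, at 19.8 to 27.5 and 22.4 to 28.2 CPM, was at 0.05 ± 0.16 (adjusted p = 0.849, edgeR), and its sign turned without sibling replicate 1 of 34 hpf (-0.03) or sibling replicate 3 of 48 hpf (-0.02).

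In total 7 of the 10 genes were lower and 0 higher at 48 hpf in siblings, where 15.7% of all genes tested were lower and 18.3% higher. The median log2 fold change of the 10 was -2.97, against -0.03 over all genes. Libraries of the stages did not overlap in 8 of the 10, all lower, where 20.4% of all genes did not overlap and were higher and 19.9% lower. The 7 calls were made in each of the 16 alternative fits, those without a single library included. The sibling libraries of this comparison also enter the comparisons of genotypes with which the genes may have been chosen.

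**Figure D2:**
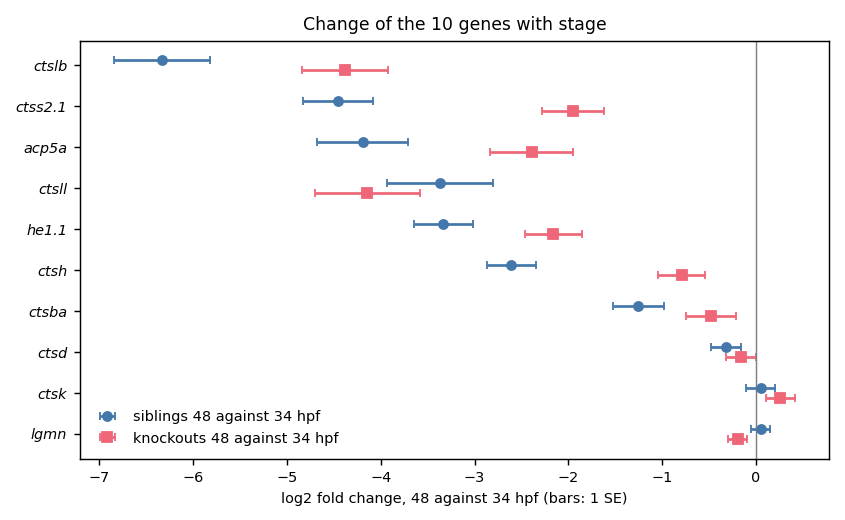
Log2 fold change of 48 against 34 hpf (horizontal axis, bars of 1 SE) for each gene, in siblings (circles, tested) and in knockouts (squares, a description). Sibling values run from -6.33 for ctslb to 0.05 for lgmn, and the knockout values of ctss2.1 and ctsh lie at -1.95 and -0.79.

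In knockouts the same stage change is given as a description. The log2 fold changes from 34 to 48 hpf were -4.38 ± 0.46 for ctslb, -4.14 ± 0.56 for ctsll, -2.39 ± 0.44 for acp5a, -2.16 ± 0.30 for he1.1 and -1.95 ± 0.33 for ctss2.1. They were -0.79 ± 0.25 for ctsh, -0.48 ± 0.27 for ctsba, -0.19 ± 0.10 for lgmn, -0.16 ± 0.16 for ctsd and 0.26 ± 0.16 for ctsk. Of the 10 genes 6 were called lower and 0 higher, where 27.7% of all genes were called (15.5% higher and 12.1% lower). The stage ranges of he1.1, ctslb, ctsll and acp5a did not overlap in knockouts, and all 4 were lower at 48 hpf, as were 10.3% of all genes without overlap (14.4% higher).

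At 34 hpf the knockout levels did not move in 1 direction. For the hatching gland pair, he1.1 stood at 2377, 2637, 2556 and 3029.6 CPM in knockout replicates 1 to 4, all above the siblings, and ctslb at 312, 366, 249.6 and 277 CPM, which overlapped them. Their log2 fold changes against siblings were 0.40 ± 0.29 and 0.25 ± 0.40. The gene ctsll, at 24.7, 57.7, 26.4 and 48.3 CPM, was above every sibling library (1.28 ± 0.49). So was lgmn, at 129.9, 167, 175 and 168 CPM against 83.9 to 88.3 CPM in siblings (0.89 ± 0.10).

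The genes ctsh and ctss2.1 had lower means in knockouts at that stage. All knockout libraries of ctsh (11.5, 18.7, 16.5 and 30.8 CPM) lay below the siblings, with a log2 fold change of -1.63 ± 0.25. For ctss2.1 the values were 43.5, 41.9, 13.4 and 65.0 CPM (-1.08 ± 0.32), where replicate 4 reached the sibling range and replicate 3 was the lowest. Replicates were also spread widely in ctsba, with 209.9, 419, 454 and 658 CPM (0.53 ± 0.27), and in acp5a, with 47.5, 88.7, 89.5 and 192 CPM (-0.37 ± 0.42). Replicate 1 was the lowest and replicate 4 the highest knockout in both, and also in ctsd (171 to 361 CPM, 0.30 ± 0.16) and ctsk (18.8 to 31.3 CPM, -0.07 ± 0.16). Of the 10 genes 1 was called higher and 2 lower. Among all genes 9.30% were called (4.09% higher and 5.21% lower). The groups did not overlap for 3 genes that were higher and 1 that was lower, against 6.93% and 7.23% of all genes. Nothing is read from these counts, since the genes were chosen with this comparison in view. With the replicate block ctsll was called as well (1.22), which makes 4 calls in place of 3. It was called in 3 of 16 alternatives, and ctsba and ctsd in 1 each. The call of ctss2.1 was lost in 6 of the 16. It did not hold when sibling replicate 1, 2 or 3 or knockout replicate 1 or 2 was omitted (log2 fold changes of -1.12 to -0.99). Nor did it hold with only the compared groups, where 2 of the 10 genes were higher and 1 lower.

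At 48 hpf 6 of the 10 genes were called higher in knockouts and 0 lower, where 4.76% of all genes were called higher and 5.28% lower. The groups did not overlap for 6 genes, all higher, against 8.49% of all genes higher and 10.7% lower. Nothing is read from these counts either, and limma-voom called 4 of the 10, without ctss2.1 and acp5a. The gene he1.1 stood at 1048, 396, 376 and 549 CPM, all above the siblings (1.57 ± 0.30). The gene ctslb stood at 34.7, 8.44, 7.81 and 6.79 CPM against 2.02 to 5.15 CPM in siblings (2.2 ± 0.45). Replicate 1 was the highest knockout for both, by far in ctslb. Without that library the log2 fold changes were 1.11 for he1.1 and 1.26 for ctslb. By replicate number the ratio of knockout to sibling was 4.45, 3.00, 2.92 and 1.81 for he1.1.

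Among the lysosomal genes at 48 hpf, ctsba had 223, 269.9, 390.2 and 367 CPM in knockouts against at most 139 CPM in siblings (1.31 ± 0.27), and here replicate 1 was the lowest. The gene ctss2.1, at 9.80, 9.75, 14.8 and 7.93 CPM, lay above all siblings (1.42 ± 0.34), whereas their mean was below that of the siblings at 34 hpf. For lgmn the libraries held 120.0, 132, 153 and 155 CPM (0.65 ± 0.10), again with no overlap. The values of acp5a were 8.64, 10.7, 35.7 and 24.7 CPM (1.44 ± 0.44), so that knockout replicate 1 lay among the siblings. Its call was lost without any 1 of the 4 siblings or without knockout replicates 3 or 4 (log2 fold changes of 1.00 to 1.65), and without replicate 3 the value was 1.00.

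The other 4 genes were not called at 48 hpf. For ctsd all knockouts (186, 251, 270.4 and 232 CPM) lay above the siblings (0.46 ± 0.16). The gene ctsh, below the siblings at 34 hpf, stood at 9.33, 9.47, 13.3 and 12.6 CPM, which overlaps them (0.18 ± 0.25). The values of ctsk were 22.9 to 33.3 CPM (0.14 ± 0.16). The gene ctsll ran from 0.374 CPM in replicate 4 to 5.74 CPM in replicate 3 (0.51 ± 0.57). Its log2 fold change was -0.60 without replicate 3 and -0.20 in limma-voom. The change of the knockout effect from 34 to 48 hpf was 2.51 ± 0.47 for ctss2.1, 1.82 ± 0.35 for ctsh, 1.95 ± 0.59 for ctslb, 1.80 ± 0.61 for acp5a and 1.17 ± 0.41 for he1.1 on the log2 scale. For the other 5 genes it lay between -0.78 ± 0.75 (ctsll) and 0.78 ± 0.38 (ctsba). Of the 10 genes ctss2.1 and ctsh were called for this difference, where 0.203% of all genes were (0.0872% higher and 0.116% lower), and nothing is read from that count.

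Within groups, some of the 10 genes deviated from their group means together, and 2 sets of them are described. No cut of r was set for a set. Over the 16 libraries, the deviations of log2 CPM of he1.1 and ctslb had a Pearson r of 0.806, and knockout replicate 1 of 48 hpf held the largest deviation of both. Those of ctsh and ctsba had r = 0.930, of ctsba and acp5a r = 0.845 and of ctsh and acp5a r = 0.840. The genes ctsd and lgmn also went with this set, less closely. Their r was 0.768 and 0.750 with ctsba, 0.675 and 0.627 with acp5a, and 0.674 and 0.541 with ctsh. For ctsk r was 0.546 with ctsh, 0.414 with ctsba and 0.164 with acp5a. In ctsh, ctsba and acp5a knockout replicate 1 was low and replicate 4 high at 34 hpf. In knockouts at 48 hpf replicates 1 and 2 were low and 3 and 4 high in these 3 genes. Between the sets r of ctslb was -0.561 with lgmn, -0.454 with ctsba, -0.384 with ctsd, -0.369 with acp5a and -0.285 with ctsh. That of he1.1 was -0.406 with lgmn, -0.240 with ctsd, -0.111 with ctsba, 0.007 with acp5a and 0.084 with ctsh. The genes of a library share its scaling factor, and the libraries of a stage share replicate numbers, so these values describe the libraries only.

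**Figure D3:**
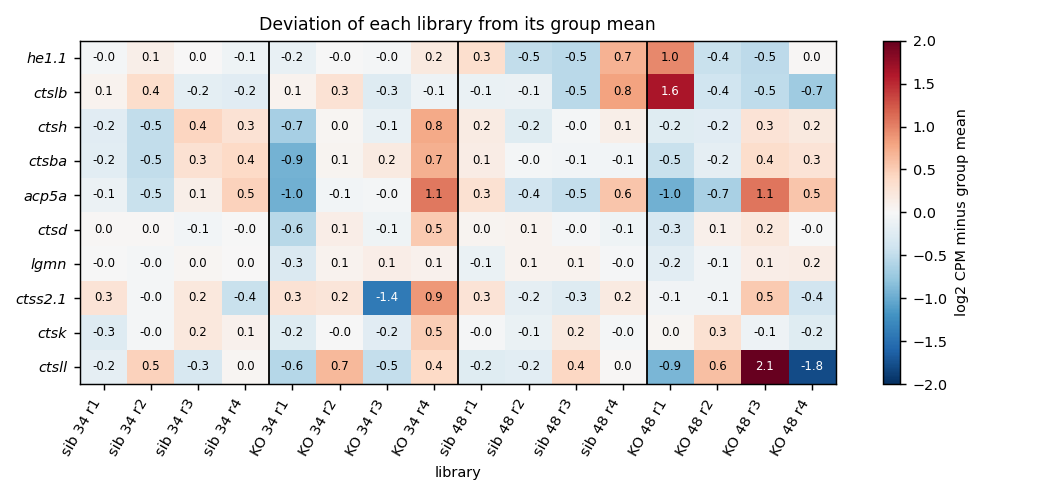
Log2 CPM of each gene minus its group mean (colour and printed value) in the 16 libraries, ordered by group and replicate (r1 to r4). Knockout replicate 1 of 48 hpf is high for he1.1 and ctslb and low for ctsba, acp5a and ctsll.

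Searching 14554 other genes for the likest deviations over the 16 libraries gave he1.2 for he1.1 (r = 0.943), followed by prodha (0.877) and slx4ip (0.858). For ctsba these were naga, a lysosomal glycosidase gene (0.944), senp6a (0.938) and ctsh (0.930), and for ctsh they were gm2a, whose product helps to degrade gangliosides in the lysosome (0.939), ctsba (0.930) and colec11 (0.905). The nearest genes were NCEH1 (1 of many) for ctslb (0.906), fetub for ctsll (0.892), mtif3 for ctss2.1 (0.873) and slc27a2a for ctsd (0.966). They were palm1b for ctsk (0.916), cct8 for lgmn (0.923) and nhsl1b for acp5a (0.909). Such values are the highest of a large search.

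Other hatching gland genes were counted from a list of 13 symbols, of which 9 were in the table and tested. In siblings, where 15.7% of all genes were called lower and 18.3% higher at 48 hpf, 5 of the 9 fell and 1 rose. Besides he1.2 and he1.3 these included the endoplasmic reticulum genes agr2 (-0.53 ± 0.09) and xbp1 (-0.31 ± 0.08), and the gene that rose was prdm1a (0.53 ± 0.15), a transcription factor gene that acts in hatching gland formation. The call of xbp1 was lost without sibling replicate 1 of 48 hpf (-0.24, adjusted p = 0.0511, edgeR). None was called between genotypes at 34 hpf by edgeR (3 at an unadjusted p below 0.05), where 9.30% of all genes were. The gene he1.3 was at 1.35 ± 0.58 (adjusted p = 0.168, edgeR), and with the replicate block it was called (1.34, adjusted p = 0.0227, edgeR). Without knockout replicate 1 of that stage 1 gene was called, lower.

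At 48 hpf 2 hatching gland genes rose in knockouts, he1.2 (37.3 ± 21.5 CPM in siblings and 112 ± 87.7 CPM in knockouts, 1.59 ± 0.41, adjusted p = 0.0204, edgeR) and the membrane protein gene cd63 (0.48 ± 0.14). The share of all genes called higher at that stage was 4.76%. As in he1.1, knockout replicate 1 was the highest library of he1.2, with 243 CPM against 60.7, 60.9 and 83.8 CPM in the others. Without it he1.2 was at 0.85 (adjusted p = 0.0996, edgeR). In that fit 0 hatching gland genes were higher and 1 lower. Without sibling replicates 2 or 3 none was called, and without sibling replicate 1 or knockout replicate 4, 1 was. The genes beside ctslb rose too, si:dkey-239j18.2 by 2.02 ± 0.39 (adjusted p = 0.00336, edgeR) and si:dkey-239j18.3 by 1.39 ± 0.30 (adjusted p = 0.00702, edgeR). The latter stood at 225, 135, 65.3 and 151 CPM in knockouts against 36.7 to 93.2 CPM in siblings, ranges that overlap. For si:dkey-239j18.2 limma-voom gave an adjusted p of 0.0531. The gene he1.3 was at 0.07 ± 0.73 at that stage, and its sign turned in 4 of 8 omissions of a library. The transcription factor gene klf17, used in hatching gland formation, was at 0.14 ± 0.35 at 34 hpf and 0.23 ± 0.36 at 48 hpf, and was not called at either stage.

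Markers of other cells were measured beside these results. Neutrophil and inflammation genes summed to 665 CPM in knockout replicate 1 of 48 hpf, the library with the highest he1.1 and ctslb, and to 164 to 182 CPM in the other knockouts. The siblings of that stage held 106 to 121 CPM, and at 34 hpf the sums were 107 to 127 CPM in siblings and 146 to 225 CPM in knockouts. Of 14 such genes tested 7 were higher at 48 hpf and 1 at 34 hpf, where 4.76% and 4.09% of all genes were. Those of smallest p at 48 hpf were il11a, mmp13a, npsn and il1b. Of the neutrophil genes npsn was at 0.72 ± 0.19, a call lost in 6 of 16 alternatives. At that stage mpx (0.51 ± 0.21) and lyz (0.12 ± 0.31) were not called. The count at 48 hpf was 3 without knockout replicate 1, 3, 3, 4 and 2 without sibling replicates 1 to 4, and 3 with the replicate block. DESeq2 called 4 and limma-voom 1. The cytokine gene tnfa was at 0 in 15 of the 16 libraries. The part of these cells in the hatching gland values was not tested.

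Macrophage and osteoclast genes, which could share ctss2.1, ctsk and acp5a, summed to 144 to 192 CPM over all libraries. None of 17 tested was called between genotypes at either stage by edgeR (1 and 2 at an unadjusted p below 0.05), and 1, lower, was called without sibling replicate 4 of 34 hpf, without sibling replicate 4 of 48 hpf and with the replicate block at 48 hpf. Between sibling stages 4 of the 17 were higher and 2 lower, against 18.3% and 15.7% of all genes. The higher genes included the calcitonin receptor gene calcr (1.28 ± 0.32), and the lower ones slc37a2 (-0.40 ± 0.11). The part of these cells in the values of ctss2.1, ctsk and acp5a was not tested.

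Periderm and epidermis genes, the cells that cover the embryo, summed to 21368 to 23878 CPM in siblings and 21775 to 29517 CPM in knockouts at 34 hpf, and to 18506 to 20294 and 22266 to 23732 CPM at 48 hpf. Between genotypes 4.09% of all genes were called higher and 5.21% lower at 34 hpf, and 4.76% and 5.28% at 48 hpf. Of 16 periderm and epidermis genes tested, 3 were higher in knockouts at 34 hpf, or 5 higher and 1 lower with the replicate block. At 48 hpf 4 were higher. The latter count was 1 when sibling replicate 1 or 2 or knockout replicate 1 was omitted, and 2 without sibling replicate 3 or knockout replicate 4. Notochord genes, of 12 tested, had 1 higher at 34 hpf and 1 higher and 2 lower at 48 hpf. The lower genes were matn1 (-3.83 ± 0.80) and col9a1a (-0.54 ± 0.12), and omission of a library left 2 to 3 lower. The higher gene at both stages was tbxta, a notochord transcription factor gene (0.37 ± 0.09 and 0.32 ± 0.09). Its call was lost without sibling replicates 1 or 4 at 34 hpf. At 48 hpf it was lost in 11 of 16 alternatives (adjusted p up to 0.162 in edgeR), among them the replicate block, limma-voom, and omission of any 1 sibling or of knockout replicate 1, 2 or 3. In siblings 18.3% of all genes rose and 15.7% fell with stage. Of the epidermal genes 2 rose and 5 fell, and of the notochord genes 4 rose and 5 fell. The part of these cells in the values of the 10 genes was not tested.

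Other cathepsins and related lysosomal proteases were higher in knockouts in part. Of 14 tested 3 rose at 34 hpf and 6 at 48 hpf, with 0 lower at either stage. Among all genes 4.09% were called higher at 34 hpf and 4.76% at 48 hpf. These calls are a description, since the list was chosen with earlier results of these data known. The dipeptidase gene ctsc rose from 52.8 ± 8.73 to 143 ± 65.6 CPM at 34 hpf (1.43 ± 0.25, adjusted p = 0.00152, edgeR) and by 0.95 ± 0.25 at 48 hpf. The tripeptidyl peptidase gene tpp1 was at 0.62 ± 0.10 and 0.61 ± 0.10, and ctso at 0.79 ± 0.14 and 0.60 ± 0.14. The cathepsin L gene ctsla rose at 48 hpf, from 725 ± 212 to 1602 ± 589 CPM (1.14 ± 0.26, adjusted p = 0.00955, edgeR), with knockout replicate 1 at 928 CPM, below the highest sibling. The count was 6 at 34 hpf without knockout replicate 1, and 3 at 48 hpf when sibling replicate 2, 3 or 4 or knockout replicate 3 was omitted. Between sibling stages 6 fell and 1 rose, against 15.7% and 18.3% of all genes, with ctsla at -1.09 ± 0.26 and ctsf at 0.43 ± 0.11.

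Glycosidases, lipases and other hydrolases of the lysosome were also counted between genotypes, in a list that holds some genes of helper proteins and carriers as well. Of 31 tested 3 rose and 2 fell at 34 hpf, and 2 rose at 48 hpf. Among all genes 4.09% were called higher and 5.21% lower at 34 hpf, and 4.76% higher at 48 hpf. Nothing is read from such small counts. The acid phosphatase gene acp2 (0.72 ± 0.13 and 0.58 ± 0.13) and the fucosidase gene fuca1.1 (0.72 ± 0.14 and 0.69 ± 0.14) rose at both, and the phospholipase gene pla2g15 fell at 34 hpf (-0.96 ± 0.21). Without sibling replicate 2 of 34 hpf 2 rose and 1 fell, and with the replicate block 3 rose and 1 fell at 48 hpf. Between sibling stages 11 fell and 1 rose, against 15.7% and 18.3% of all genes. Those that fell included psap (-1.49 ± 0.20), the gene of the saposin precursor, and the cholesterol carrier gene npc2 (-1.18 ± 0.19), which are not hydrolase genes themselves.

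Of 16 lysosomal membrane protein genes, 4 rose and 0 fell in knockouts at 34 hpf, and 5 rose and 1 fell at 48 hpf. Among all genes 4.09% were called higher and 5.21% lower at 34 hpf, and 4.76% and 5.28% at 48 hpf. With the replicate block 4 rose and 1 fell at 34 hpf. The channel gene mcoln1b, 1 of the 4 (0.62 ± 0.18), lost its call in 9 of 16 alternatives with adjusted p up to 0.113, among them the block (0.0544) and limma-voom (0.0566), and omission of sibling replicate 2 or 3 or knockout replicate 1, 2 or 3. The receptor gene scarb2a, whose human counterpart carries glucocerebrosidase to the lysosome, was at 0.62 ± 0.13 and 0.90 ± 0.14 and the cystine transporter gene ctns at 0.50 ± 0.12 and 0.41 ± 0.12. The sialic acid transporter gene slc17a5 fell at 48 hpf, from 63.2 ± 9.93 to 20.0 ± 1.83 CPM (-1.66 ± 0.13, adjusted p = 5.25e-07, edgeR). At 34 hpf it was at -0.06 ± 0.13, and the change of its knockout effect between stages was -1.60 ± 0.18 (adjusted p = 0.000767, edgeR). The 48 hpf counts were 1 or 2 higher and 1 lower when sibling replicate 1, 2 or 3 or knockout replicate 1 or 4 was omitted. Cd63 is in this list as well as in the hatching gland list. Between sibling stages 4 rose and 2 fell, against 18.3% and 15.7% of all genes.

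Shorter lists held few calls. Where edgeR called none between sibling stages or between genotypes, here or among the hatching gland and macrophage lists, DESeq2 and limma-voom also called 0. Between genotypes 4.09% of all genes were called higher and 5.21% lower at 34 hpf, and 4.76% and 5.28% at 48 hpf. Between sibling stages 18.3% were higher and 15.7% lower. Of 5 cystatins, inhibitors of cysteine cathepsins, 0 rose and 1 fell at 34 hpf (cst14b.1, -0.51 ± 0.14), and 3 fell with stage in siblings, led by cst14b.1 (-1.81 ± 0.14). Omitting sibling replicate 2, 3 or 4 or knockout replicate 1 or 3 removed the call at 34 hpf. At 48 hpf none passed in edgeR (2 at an unadjusted p below 0.05), or 1, higher, with the replicate block. Of 9 genes that deliver enzymes to the lysosome, 1 fell at each stage (cln8, -0.72 ± 0.09 and -0.28 ± 0.08) and none passed edgeR's test between sibling stages (1 at an unadjusted p below 0.05). The call of cln8 at 48 hpf did not hold in 10 of 16 alternatives, with adjusted p up to 0.116 in edgeR: the replicate block, upper quartile scaling, no filter, only the compared groups, and omission of sibling replicate 2, 3 or 4 or knockout replicate 2, 3 or 4. At 34 hpf there was 1 higher and 1 lower without knockout replicates 1 or 3. Of 6 genes of the MiT/TFE family, which activate lysosomal genes, tfec rose in knockouts at 34 hpf (0.55 ± 0.11) and none was called at 48 hpf by edgeR (2 at an unadjusted p below 0.05), where 1 was with the replicate block and without sibling replicate 4 or knockout replicate 2. In siblings tfec rose and mitfa fell with stage, and tfec lost its call without sibling replicates 2 or 4 of 34 hpf or sibling replicate 4 of 48 hpf.

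**Figure D4:**
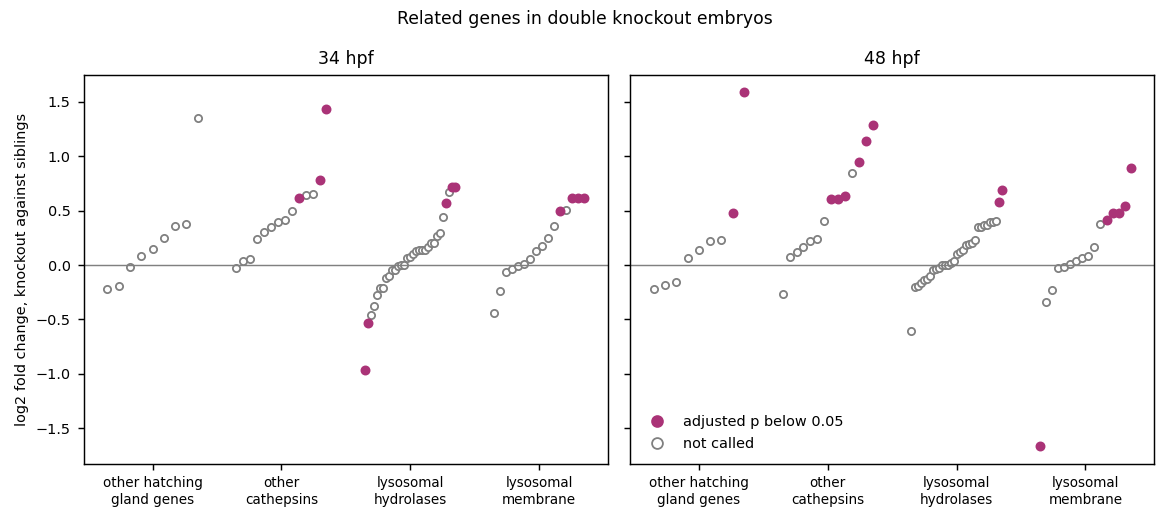
Log2 fold change of knockout against siblings (vertical axis) at 34 and 48 hpf for the genes tested of the hatching gland, cathepsin, hydrolase and membrane lists, ordered by value within each list. Filled points passed an adjusted p of 0.05 in edgeR; the lowest filled point at 48 hpf is slc17a5 (-1.66) and the highest is he1.2 (1.59).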

How the data were processed

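Per the labels' protocols, TRIzol RNA of whole embryos went into VAHTS Universal V8 libraries. Whole-number read counts for each gene symbol were deposited by the authors. Per the submitters' processing notes, they used FastQC 0.12.1, Trim Galore 0.6.10, STAR 2.7.10b, featureCounts 2.0.6 and the build GRCz11; the sources used here give neither the annotation nor the strand setting. Counts were filtered with filterByExpr, scaled by TMM and fitted in a model of 4 groups over 16 libraries with edgeR 4.0.16 (glmQLFit, glmQLFTest; R 4.3.3). A call is a Benjamini-Hochberg adjusted p under 0.05 among the 24084 genes tested. CPM values use the TMM-scaled library size.

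The 10 genes and the 11 other lists were chosen with earlier results of these data known. Named genes were the 10, up to 4 per list and comparison with the smallest p, and, by deviation of log2 CPM (prior count 0.5) over genes averaging 1 log2 CPM or more and not named only by a clone, the likest 3. Direct neighbours, klf17, tnfa, prdm1a and, at 48 hpf, ctns, mpx and lyz are outside that rule and were named with their values known. At each stage, siblings and knockouts of the same number deviated from their group means together, with r of 0.149 to 0.420, all above 0.1. The numbers were therefore taken to pair them in the replicate block, from these values and the repeat numbers in the labels. The main fit had no term for this pairing, so its calls and SE are unpaired. The knockout of the same number was the likest for sibling replicates 2 and 3 at 34 hpf and 1 and 4 at 48 hpf. For the other siblings a knockout of another number was liker, so the pairing is uncertain. No replicates agreed within counting noise (the smallest ratio of observed to counting variance was 7.93). The fits were tested on simulated counts. Of simulated 2-fold changes 56% were called between sibling stages, 59% between genotypes at 34 hpf, 63.6% at 48 hpf and 39% for the difference. Genes not called may therefore still have changed. Far fewer genes were changed in the simulations than were called in the data. Between sibling stages the simulation gave 139 calls, against 8171 in the data, so the shares recovered may differ in the data. Alternatives were DESeq2 1.42.0, limma-voom (limma 3.58.1), other scalings and filters, only the compared groups, a replicate block, and omission of each library in turn. Figures used matplotlib 3.10.9.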

Additional observations from a re-analysis of the deposited data

Results flagged for a closer look

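In 40 sets of 4 libraries (10 genes in 4 groups) and 44 sets of list sums, a library far from the other 3 was looked for with Dixon's criterion, which chance meets in about 1 of 20 sets. Among the 10 genes 2 sets met it. The level of ctslb in knockout replicate 1 of 48 hpf was 34.7 CPM, against 6.79 to 8.44 CPM in the other knockouts. The level of ctsba in sibling replicate 1 of 48 hpf was 139 CPM, against 121 to 122 CPM. In the same knockout library the other hatching gland genes summed to 774 CPM (535 to 559 CPM in the other knockouts) and the neutrophil and inflammation genes to 665 CPM (164 to 182 CPM). The sum of the MiT/TFE family was lowest in sibling replicate 2 of 34 hpf, at 84.2 CPM against 93.3 to 94.5 CPM, and that of notochord genes lowest in knockout replicate 4 of 48 hpf, at 1897 CPM against 2023 to 2036 CPM.

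The knockout effect on ctss2.1 was 2.51 and that on ctsh 1.82 higher at 48 than at 34 hpf on the log2 scale. These values are listed because they passed edgeR's threshold for the difference, as 0.203% of all genes did. They are a description and no evidence, since both genes were chosen with values of the same libraries known, and either call was lost in limma-voom and in most omissions of a library.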

How the results depend on the processing

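The 7 calls of the 10 genes between sibling stages were made in all 16 alternatives. Without a library each, all genes called numbered 7072 to 7356 between sibling stages (8171 with all libraries), 1386 to 3208 between genotypes at 34 hpf (2240), 1506 to 2259 at 48 hpf (2417) and 24 to 113 for the difference (49). Of the 10 genes, 7 to 7, 2 to 4, 5 to 6 and 0 to 2 were called. With only the compared groups 1230 genes were called at 34 hpf, and DESeq2 called 177 for the difference. For the difference limma-voom called 0 of the 10 genes (36 genes in all). With the replicate block 1 of the 10 kept its call for the difference, and the block made ctsll a call at 34 hpf. Sibling numbers do not pair across stages (r = -0.198 to 0.286), and with a block on them 7 of the 10 and 8285 genes were called. Upper quartile scaling turned the split at 34 hpf from 985 higher and 1255 lower (44.0% higher) to 1375 and 1078 (56.1% higher), and no scaling shifted the median of all genes by more than 0.05 on the log2 scale. Among the 10 genes, and for the family members he1.3 and ctss2.2, signs turned without a library for ctsk between sibling stages (-0.031 and -0.020), he1.3 at 48 hpf (range -0.34 to 0.52), ctss2.2 at 48 hpf (range -0.58 to 0.12), ctsll at 48 hpf (-0.60), ctsk at 34 hpf (up to 0.0090) and ctsd for the difference (-0.021). At 48 hpf limma-voom called 4 of the 10 genes, DESeq2 size factors 5 and the compared groups alone 7. The cause of these changes was not tested. Counts of the lists rest on few genes, and low values such as those of ctsll and he1.3 at 48 hpf limit what can be read from them.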
